A study of Homo sapiens with 12 samples.

Results

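AGR2, AGR3, SPDEF, TFF1, TFF2, TFF3, REG4 and FCGBP are genes of mucus-secreting intestinal cells, and their RNA was followed in 2 human colorectal cancer cell lines with altered amounts of the long non-coding RNA SLERT. They were taken by gene symbol, and all 8 were found among the 62656 Ensembl genes of the count table. The set was chosen by function and on the measured LoVo fold changes, in which AGR2 was among the larger increases, so the LoVo comparison is given for these genes as a description, without a test. Tests on them are given for the overexpression in HCT116 and, where the filter on low counts did not set the outcome, for the controls of the 2 lines.

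The study, on SLERT in metastasis of colorectal cancer, held 12 RNA sequencing libraries, 3 in each of 4 groups. HCT116 was given as a control, in columns headed Vector, and with SLERT overexpression (OE). LoVo was given as a control, in columns headed ShNC, and with SLERT knockdown (KD), in columns headed Sh. Both lines are epithelial lines from colorectal tumours, and whether each arm is a clone or a pool is not stated by the labels. The labels do not tell whether the 3 libraries of a group are separate cultures, and p-values here measure only their spread, which may be technical.

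Goblet cells fill the gut surface with mucus, and the genes described here serve that task. SPDEF is an ETS-family transcription factor that drives goblet cell maturation. AGR2 is a protein disulfide isomerase of the endoplasmic reticulum that is needed to make the mucin MUC2, and AGR3 is its close relative. The trefoil factors TFF1, TFF2 and TFF3 are small secreted peptides that protect and repair the mucosa, TFF1 and TFF2 being typical of the stomach and TFF3 of the intestine. FCGBP is a large protein bound within mucus, and REG4 is a secreted C-type lectin of secretory and enteroendocrine cells that is often abundant in gastrointestinal tumours.

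Total counts ran from 14464008 to 17230310 per library, and log2 levels correlated at 0.991 to 0.993 between libraries of a group. The overexpression was seen at the SLERT locus: SNORA5C, a small nucleolar RNA that forms an end of SLERT, summed to 16 counts in the HCT116 controls and 1926 in the OE libraries. In LoVo both arms summed to 37 counts, so no fall of the target was seen there, and the groups are called by their labels. Colorectal epithelial markers (EPCAM, KRT8, KRT18, CDH1, VIL1 and CDX2) summed to 3490 to 3960 CPM (counts scaled to library size) in HCT116 and 5690 to 7260 in LoVo, whereas VIL1 was near absent in HCT116 at 0.0833 ± 0.0400 CPM (SD, n = 3 controls). Leukocyte markers summed to at most 3.11 CPM in any library, with CD3E at 0 in 3 of the 4 groups.

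The genes lie at 5 places on GRCh38, all on the minus strand. AGR2 (ENSG00000106541, chromosome 7, 16791811 to 16833433) and AGR3 (ENSG00000173467, chromosome 7, 16859405 to 16881987) are neighbours. TFF3 (ENSG00000160180, 42311667 to 42315651), TFF2 (ENSG00000160181, 42346357 to 42351128) and TFF1 (ENSG00000160182, 42362282 to 42366594) form a cluster on chromosome 21. REG4 (ENSG00000134193) spans 119794018 to 119811660 on chromosome 1, SPDEF (ENSG00000124664) 34537802 to 34556333 on chromosome 6 and FCGBP (ENSG00000275395) 39863323 to 39934626 on chromosome 19. In GENCODE 29 the overlap of AGR3 with a pseudogene, RAD17P1, which had 0 counts, was the only overlap of these genes with another gene.

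The upstream sequences of the neighbours AGR2 and AGR3 are shown because both genes had counts in LoVo and almost none in HCT116. They are taken from RefSeq on GRCh38.p14, read 5′ to 3′ on the minus strand from base -250 before the RefSeq start, and end before the first base that GENCODE 29 places in an exon. Capitals mark matches to 6 motifs searched on both strands.
AGR2, chr7:16805081-16805249: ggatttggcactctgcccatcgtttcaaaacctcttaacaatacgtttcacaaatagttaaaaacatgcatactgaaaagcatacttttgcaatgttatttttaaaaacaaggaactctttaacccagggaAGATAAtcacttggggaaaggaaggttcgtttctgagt
AGR3, chr7:16881988-16882233: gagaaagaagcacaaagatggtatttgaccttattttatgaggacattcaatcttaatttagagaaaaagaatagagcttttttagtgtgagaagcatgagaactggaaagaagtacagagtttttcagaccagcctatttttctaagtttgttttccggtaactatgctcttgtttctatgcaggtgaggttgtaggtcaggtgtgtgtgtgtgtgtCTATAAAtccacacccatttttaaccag
The RefSeq start of AGR2 and the AGR2 stretch shown lie inside the GENCODE 29 span of AGR2 given above. The motif AGATAA, bound by GATA factors, stands at -119 to -114 from the RefSeq start of AGR2. It also stands at -122 to -117 from the start of REG4, in a window that is not shown because GENCODE 29 places most of it in an exon. Of 35116 promoters of 250 bases, 9.17% held this motif. AGR3 and REG4 each hold a TATA motif, TATAAA, at -31 to -26, as 10.7% of promoters do. A CDX motif, TTTATNG, overlaps that of AGR3 on the other strand, and REG4 has one at -112 to -106 (8.93% of promoters). The AP-1 motif TGANTCA was found in REG4 at -142 to -136 (6.57% of promoters), and TGTTTAC of forkhead factors and TGACGT, bound by CREB and XBP1, were found in none of the 5 genes matched, which also include SPDEF and FCGBP.

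LoVo had RNA of the secretory genes REG4, AGR2 and TFF2, and HCT116 had almost none. In FPKM, which divides counts by gene length and library total and so allows genes to be compared, REG4 stood highest in the LoVo controls at 56.5 ± 2.60 (SD, n = 3), rank 542 among 30952 genes with any signal there. AGR2 at 5.23 ± 0.914 and TFF2 at 4.87 ± 0.282 FPKM followed, and these neighbours in the order did not differ beyond their spread. FCGBP had 0.432 ± 0.0928, TFF1 0.230 ± 0.209, AGR3 0.215 ± 0.0303 and SPDEF 0.0234 ± 0.0404 FPKM, and TFF3 had no count in any LoVo control. The TFF1 libraries overlapped those of FCGBP, AGR3 and SPDEF in these levels. In the HCT116 controls the order was different, with FCGBP first at 0.908 ± 0.102 FPKM, then SPDEF at 0.255 ± 0.252 and REG4 at 0.0684 ± 0.0615, which overlapped each other.

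**Figure D1:**
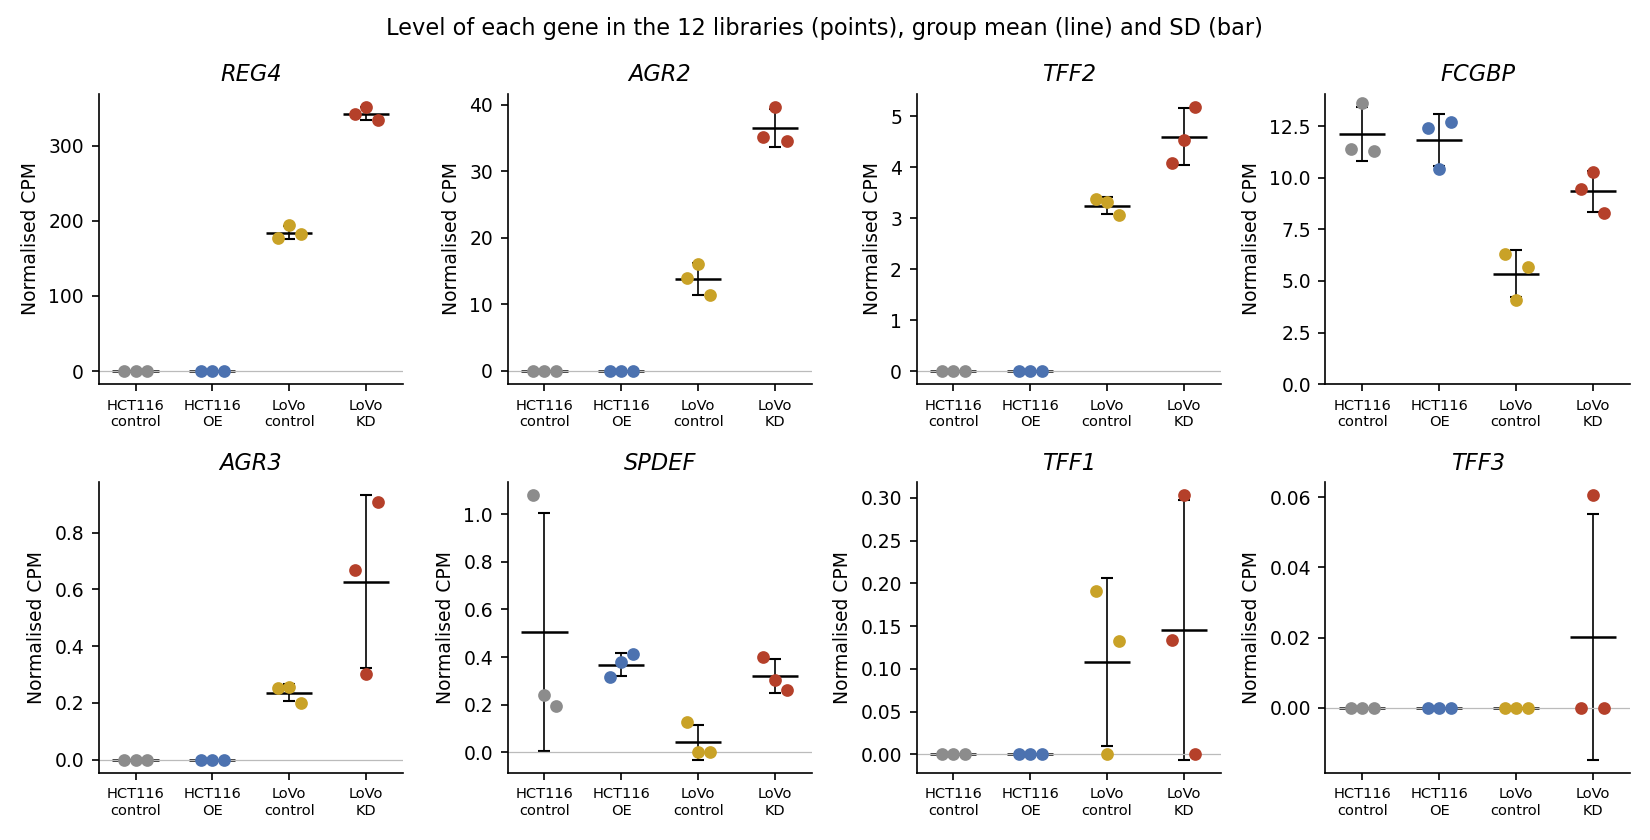
Each panel shows 1 gene, with its normalised CPM (vertical axis, a scale of its own in each panel) in the 12 libraries as points, and the group mean and SD over 3 libraries as a line and bar. REG4, AGR2 and TFF2 are at or near 0 in HCT116 and higher in the 3 LoVo KD libraries than in any LoVo control, while FCGBP is present in all 12 libraries.

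Between the controls of the lines, 4 of the 8 genes passed the filter on low counts. REG4, AGR2 and TFF2 passed it through LoVo alone, with 12, 1 and 0 counts over the HCT116 controls, so that they differed was largely set by the filter and their values are given without a test. Over all 17143 genes tested 79.0% were called, 39.0% higher and 39.9% lower in LoVo. REG4 had 7, 5 and 0 counts in the HCT116 controls and 2785, 3037 and 2737 in the LoVo controls. The log2 fold change was 9.52 (SE 0.15, 95% interval 9.21 to 9.83), but this interval is narrower than that of counting error alone. The ratio of scaled counts was 758, with an exact counting interval from 434 to 1470. Leaving out 1 library gave log2 fold changes from 8.97 to 10.1, and limma on log2(FPKM + 1) gave 5.75. Of the genes tested, 0.542% had a larger log2 fold change.

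AGR2 had 1, 0 and 0 counts in the HCT116 controls and 219, 252 and 171 in the LoVo controls. With 1 count on the lower side the ratio is loose: it was 682, with an exact counting interval from 122 to 27000. TFF2 had 0 counts in all 6 HCT116 libraries and 53, 52 and 46 in the LoVo controls. It was at least 53.5-fold higher in the LoVo controls, taken against a floor of 3 counts over the HCT116 control group.

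FCGBP went the other way. It had 190, 226 and 177 counts in the HCT116 controls and 99, 64 and 85 in the LoVo controls, so every HCT116 control lay above every LoVo control, as held for 40.3% of the genes tested. Its log2 fold change, LoVo minus HCT116, was -1.17 (SE 0.15), with an adjusted p of 5.59e-08 from edgeR's quasi-likelihood test with Benjamini-Hochberg adjustment over all genes.

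The other 4 genes were too low for the test. AGR3 had 0 counts in every HCT116 library and 4, 4 and 3 in the LoVo controls, which is at least 3.90-fold higher against the floor of 3 counts over the group. TFF1 had 0 counts in HCT116 and 3, 0 and 2 in the LoVo controls, which overlaps with HCT116. A count of 0 allows up to 3 counts, or 0.180 to 0.206 CPM in the HCT116 libraries, and these intervals and floors cover counting error only. TFF3, the trefoil factor of the intestine, had a single count in all 12 libraries, in KD 2. SPDEF had 18, 4 and 3 counts in the HCT116 controls and 2, 0 and 0 in the LoVo controls, giving a LoVo to HCT116 ratio of 0.0850 (counting interval 0.00976 to 0.341). HCT116 control 1 held 18 of the 25 HCT116 counts, so this ratio rests largely on 1 library. Exact permutation tests on CPM, two-sided, gave p = 0.1 for AGR3 and SPDEF, the smallest that 3 libraries against 3 allow, and p = 0.4 for TFF1. The line and its culture and vector cannot be told apart in this comparison, and in bulk RNA fewer cells of a type cannot be told apart from less RNA per cell.

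Other genes of the secretory programme were taken as lists, chosen with earlier results of these data known, to place these levels. MUC2, the gel-forming mucin of the colon, had 0.470 ± 0.113 CPM in the HCT116 controls and 67.6 ± 4.68 in the LoVo controls. MUC13, a membrane mucin, had 0.149 ± 0.209 and 238 ± 4.16 CPM. Both were near 0 in HCT116 and passed the filter through LoVo, so their log2 fold changes (7.14 and 10.62) are given without a test. Over the alternative fits these ran from 2.65 to 7.34 for MUC2 and from 6.1 to 12.6 for MUC13. GCNT3, which branches mucin-type sugar chains, was higher in LoVo by 7.09 (SE 0.083) on the log2 scale. Of the 15 mucin O-glycan enzymes tested 6 were higher and 6 lower, near the 39.0% and 39.9% of all genes tested. The higher ones include ST6GALNAC1, which was near 0 in the HCT116 controls (0.163 ± 0.0662 CPM) and passed the filter through LoVo. In the family that attaches the first sugar, GALNT5 (1.95), GALNT6 (1.54) and GALNT7 (1.36) were higher and GALNT3 (-1.11) and GALNT12 (-0.87) lower. Of 13 secretory transcription factors tested, 12 were higher and 1 lower in LoVo, against 39.0% and 39.9% of all genes. Their median log2 fold change was 1.25 against 0.00156 over all genes. Among them FOXA2 (5.48), FOXA1 (3.56), CDX2 (3.21) and HNF4A (3.17) were higher, factors of gut epithelium, and FOXA3 was lower (-3.51). FOXA3 was scarce in the LoVo controls (0.652 ± 0.331 CPM) and passed the filter through HCT116. The higher ones also include HES1 (1.245), a Notch target that represses secretory fate. Of the 13 goblet mucins and granule proteins tested, 6 were higher and 6 lower, against 39.0% and 39.9% of all genes. MUC2, MUC13 and SPINK4 passed the filter through LoVo, and TPSG1, KLK1 and DNAJC12 through HCT116. Their calls were largely set by the filter, so nothing is read from this count. CLCA1, ITLN1 and RETNLB, secreted products of mature goblet cells, had 0 counts in all 12 libraries.

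With SLERT overexpression in HCT116, no change of these genes was detected. FCGBP was the 1 gene of the 8 with enough counts. It stood at 11.4, 13.6 and 11.3 CPM in the controls and 12.4, 10.4 and 12.7 in the OE libraries, and the groups overlapped. The log2 fold change was -0.03 (SE 0.12, 95% interval -0.28 to 0.23, edgeR adjusted p = 0.943). Over all genes 0.914% of 15980 were called. FCGBP was also not called by limma on FPKM, while DESeq2 gave it no adjusted p and so no call either way. Of the members tested, 0 of 1 had an unadjusted p under 0.05. Its sign turned without control 2 (0.06) or OE 2 (0.06).

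The other 7 genes stayed at or near 0 in HCT116 with OE. REG4 had 4, 3 and 2 counts in the OE libraries against 7, 5 and 0 in the controls (exact permutation test on CPM, two-sided, p = 0.8). SPDEF had 5, 6 and 6 counts against 18, 4 and 3 (exact permutation p = 1), and the single high value of control 1 makes its mean. AGR3, TFF1, TFF2 and TFF3 had 0 counts in all 6 libraries, and AGR2 had 1 count in control 1.

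No gene of the secretory and cell type marker lists passed the edgeR test in HCT116, with 0 of 81 called, against 0.914% of all genes. At an unadjusted p under 0.05 there were 15 of the 81. The share of all genes at that threshold was not taken, so nothing is read from this count. DESeq2 called 1, AREG, an EGFR ligand that AGR2 is known to induce (log2 fold change -0.19, adjusted p = 0.0221), and limma on log2 FPKM called 0. The median log2 fold change over all genes was -0.00232. It was 0.02 for mucin O-glycan enzymes, -0.06 for secretory transcription factors and -0.10 for goblet mucins and granule proteins. Colorectal epithelial markers, with 5 genes tested, had a median of 0.02. Marker lists with only 1 or 2 genes tested had medians further from that of all genes. These were -0.60 for leukocyte, -0.33 for tuft, -0.30 for absorptive, 0.14 for enteroendocrine and 0.11 for fibroblast and endothelial markers.

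In LoVo, the members with RNA were higher in the libraries labelled SLERT knockdown. REG4 stood at 177, 194 and 182 CPM in the controls and at 342, 352 and 334 in the KD libraries. All KD libraries lay above all controls, and the log2 fold change was 0.89 (SE 0.058, 95% interval 0.77 to 1.01), a 1.85-fold difference. In FPKM it went from 56.5 ± 2.60 to 103 ± 2.69, and its rank among genes from 542 to 234.

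AGR2, the disulfide isomerase, had the largest fold of the members tested. It stood at 13.9, 16.1 and 11.4 CPM in the controls and 35.2, 39.7 and 34.5 in the KD libraries, without overlap. Its log2 fold change was 1.40 (SE 0.11, 95% interval 1.17 to 1.62), a 2.64-fold difference that ranked 42 from the top of 16253 genes. AGR3, its neighbour, had 4, 4 and 3 counts in the controls and 10, 5 and 14 in the KD libraries, or 2.61 times as many after scaling (counting interval 1.26 to 5.78). The groups of AGR3 did not overlap, but its counts are few and KD 2 lies close to the controls.

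TFF2 stood at 3.37, 3.32 and 3.06 CPM in the controls and 4.08, 4.54 and 5.19 in the KD libraries. The groups did not overlap, and the log2 fold change was 0.50 (SE 0.19, 95% interval 0.10 to 0.90). TFF1 had 3, 0 and 2 counts in the controls and 2, 5 and 0 in the KD libraries, which overlap. The ratio of 1.38 had a counting interval from 0.378 to 5.53, so at this depth no difference was detectable.

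FCGBP, which binds within mucus, stood at 6.29, 4.08 and 5.66 CPM in the controls and 9.43, 10.3 and 8.31 in the KD libraries, without overlap (log2 fold change 0.80, SE 0.16, 95% interval 0.46 to 1.14). Its KD level remained below the HCT116 controls, which had 12.1 ± 1.29 CPM. SPDEF had 2, 0 and 0 counts in the controls and 6, 5 and 4 in the KD libraries, or 7.41 times as many after scaling (counting interval 1.72 to 66.8). Its highest LoVo library held 0.401 CPM, so SPDEF stayed among the scarce RNAs in both arms.

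AGR2, REG4, TFF2, FCGBP, AGR3 and SPDEF, 6 of the 8, were higher in every KD library than in any control, against 19.6% of the 16253 genes tested. The members were chosen with this comparison known, so nothing is read from that count. The difference between the lines in their response was not tested, because OE and KD are different manipulations and the LoVo comparison served in choosing the genes.

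**Figure D2:**
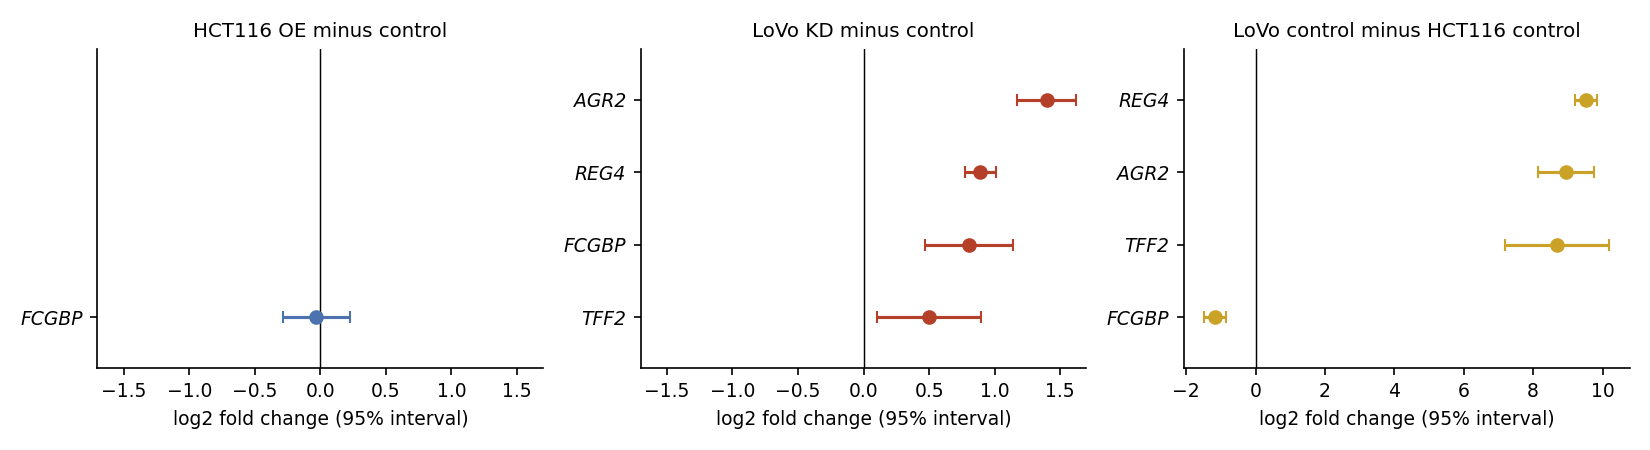
Log2 fold changes (horizontal axis) with 95% intervals from the edgeR fits, for the members that passed the filter on low counts in each comparison, with a wider axis for the comparison of the 2 controls. The values of AGR2, REG4, FCGBP and TFF2 are positive in LoVo KD, where the intervals are a description and no test. The interval of FCGBP spans 0 in HCT116 OE. Between the controls, the values of AGR2 and TFF2 rest on 1 and 0 counts in HCT116 and so depend on the small constant the fit adds. The interval of REG4 there, with 12 counts in HCT116, is narrower than that of counting error alone.

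The secretory lists moved unevenly in LoVo. The lists, like the members, were chosen with earlier results of these data known. Their counts, medians and adjusted p-values in LoVo are therefore a description. Of the enzymes that build mucin-type sugar chains, 9 of 15 were higher and 2 lower in the KD libraries, with a median log2 fold change of 0.33. Over all genes 12.6% were higher and 13.7% lower, with a median of 0.000507. GCNT3, at 367 ± 5.75 and 591 ± 29.6 CPM, rose by 0.69 (SE 0.056, edgeR adjusted p = 2.92e-09). GALNT12 (0.99), GALNT3 (0.87) and GALNT7 (0.43), of the family that attaches the first sugar, rose as well. GALNT6, of the same family, fell (-0.42, SE 0.066, adjusted p = 4.99e-05), as did C1GALT1C1, the chaperone of the core 1 enzyme (-0.33). The call of C1GALT1C1 was lost without control 1 or 3, without KD 1 or 3, without a filter and with DESeq2. The number higher was 7 without control 3 or KD 2.

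Of 12 secretory transcription factors tested in LoVo, 6 were higher and 2 lower in the KD libraries, with a median of 0.24. ELF3, an epithelial ETS factor like SPDEF, rose by 0.56 on the log2 scale (161 ± 8.25 and 237 ± 18.3 CPM, SE 0.065, edgeR adjusted p = 1.06e-06). XBP1, which expands the secretory apparatus, rose by 0.46 (SE 0.060), HES1, a Notch target that represses secretory fate, by 0.54 (SE 0.072), and FOXA2 by 0.38 (SE 0.092). CDX2, the intestinal homeobox factor, fell by 0.48 (SE 0.073) and KLF4, a factor of goblet cell maturation, by 0.28 (SE 0.066). Without control 3 the number higher was 4.

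Among mucins and granule proteins, 1 of 11 was higher, 2 were lower and 8 were not called, with a median of 0.11. The share called is close to the 26.3% of all genes called in either direction. MUC2, whose protein AGR2 helps to fold, rose by 0.36 on the log2 scale (69.1 ± 4.78 and 88.7 ± 7.98 CPM, SE 0.075, edgeR adjusted p = 0.00109). MUC6, a gastric gland mucin that is found with TFF2 in the stomach, fell from 6.72 ± 1.43 to 3.54 ± 0.805 CPM (-0.93, SE 0.20, adjusted p = 0.0014). BCAS1, a marker of goblet cells, fell (-0.49). Its call was lost without control 1, control 2 or KD 1, with limma on either FPKM scale and with all 12 libraries in 1 fit.

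Among disulfide isomerases and partners of AGR2, 3 of 17 were higher and 2 lower in the KD libraries, with a median of 0.11, a share close to the 26.3% of all genes called in either direction. AREG rose by 0.86 on the log2 scale (130 ± 4.37 and 237 ± 7.52 CPM, SE 0.060, edgeR adjusted p = 2.12e-10). EPCAM, an adhesion protein that has been described as a client of AGR2, rose by 0.42 (SE 0.058), and ERN1, the stress sensor upstream of XBP1, by 0.28 (SE 0.073). The call of ERN1 was lost with limma on either FPKM scale. PDIA5, a sister isomerase, fell by 0.25, a call lost without control 1, control 3, KD 2 or KD 3, without a filter and with DESeq2. DAG1, a surface receptor reported to bind AGR2, fell by 0.20, a call lost without control 1, control 3 or KD 3.

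Of the 6 proposed receptors and relatives of the trefoil and REG proteins that were tested in LoVo, CXCR4, a chemokine receptor proposed for TFF2, fell by 1.96 on the log2 scale (2.84 ± 0.575 and 0.717 ± 0.361 CPM, SE 0.35, edgeR adjusted p = 0.000273). CXCR4 was low in both arms, and its size depends on the fit. Over the alternative fits the log2 fold change ran from -2.36 to -0.676. F2RL1, a protease-activated receptor, rose by 0.26 (SE 0.064), and the other 4 were not called. In the Notch list, which governs the choice between absorptive and secretory fate, 1 of 11 was higher (HES1) and 3 were lower. The lower ones were NOTCH1 (-0.52, SE 0.10), NOTCH2 (-0.23, SE 0.060) and the ligand JAG1 (-0.17). JAG1 was not called without control 1, control 3 or KD 3, nor without a filter.

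**Figure D3:**
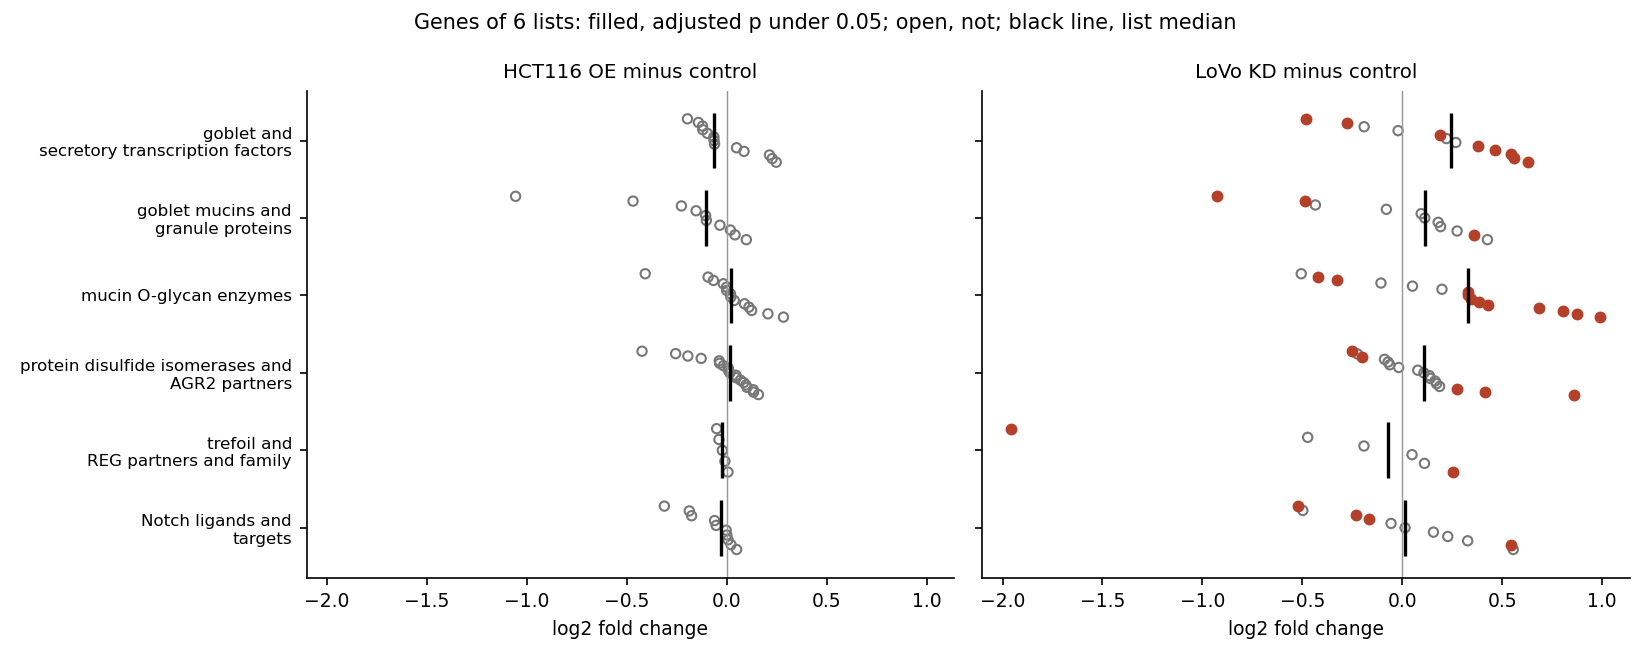
Log2 fold changes (horizontal axis) of the genes tested in each of 6 lists (rows), for OE in HCT116 on the left and KD in LoVo on the right, with filled points for an adjusted p under 0.05, open points for the rest and a black line at the list median. No point is filled in HCT116, and in LoVo the mucin O-glycan enzymes have 9 filled points above 0 and 2 below, with CXCR4 at -1.96 as the lowest point.

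Markers of the epithelium and of other cell types also differed between the LoVo arms. Of the 6 colorectal epithelial markers, EPCAM was higher and 4 were lower in the KD libraries by edgeR, VIL1 (-0.54), CDX2 (-0.48), KRT8 (-0.32) and KRT18 (-0.16), the last not without control 3 or KD 3. The 6 summed to 6750 to 7260 CPM in the controls and 5690 to 6270 in the KD libraries. POU2F3, the factor that defines tuft cells, fell by 1.11 on the log2 scale (24.2 ± 1.86 and 11.2 ± 0.937 CPM, SE 0.11, edgeR adjusted p = 7.52e-08), and the 4 tuft markers summed to 32.9 to 36.6 CPM in the controls and 20.6 to 21.3 in the KD libraries. Absorptive markers, 2 of 8 of them tested, summed to 14.4 to 16.8 and 10.3 to 12.4 CPM, with KRT20 lower (-1.08) and CA2 higher (0.83). Enteroendocrine markers summed to 3.33 to 4.15 and 2.92 to 4.61 CPM, with NEUROG3 at 0 in both arms, and Paneth markers to 4.89 to 6.80 and 5.13 to 6.66 CPM, with DEFA5 and DEFA6 at 0. LGR5, the only stem marker tested, was not called (log2 fold change 0.10), and of fibroblast and endothelial markers, which summed to 14.1 to 14.8 and 2.60 to 4.15 CPM, COL3A1 fell (-2.57) while COL1A2 and CDH5 were at 0. The part of these differences in the values of AGR2, REG4, TFF2 and FCGBP was not tested.

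Few genes next to AGR2 and the trefoil cluster were called in LoVo. Near AGR2, 1 of 6 tested was higher. Around the trefoil cluster, 1 of 11 tested was higher and 1 lower. Over all genes 26.3% were called in either direction, so nothing about these places is read from the calls. Within 500 kb of the start of AGR2, 19 other genes are annotated and 6 were tested besides the members, of which TSPAN13, a tetraspanin gene whose start lies at -79.9 kb from that of AGR2 (toward lower coordinates), rose by 0.46 on the log2 scale (47.9 ± 1.47 and 66.0 ± 8.88 CPM, SE 0.084, edgeR adjusted p = 0.000267). BZW2 (0.00) and AHR, the aryl hydrocarbon receptor gene, on the other side of AGR2 (0.02), were not called. Around the trefoil cluster 11 of 26 genes were tested. TMPRSS3, a transmembrane serine protease gene with its start at 45.7 kb from that of TFF2, fell by 0.78 on the log2 scale (21.5 ± 1.28 and 12.6 ± 1.69 CPM, SE 0.11, edgeR adjusted p = 2.18e-05). ZBTB21 rose by 0.29 (SE 0.092, edgeR adjusted p = 0.0235), a call lost without control 1, control 3 or KD 1 and with limma on either FPKM scale.

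**Figure D4:**
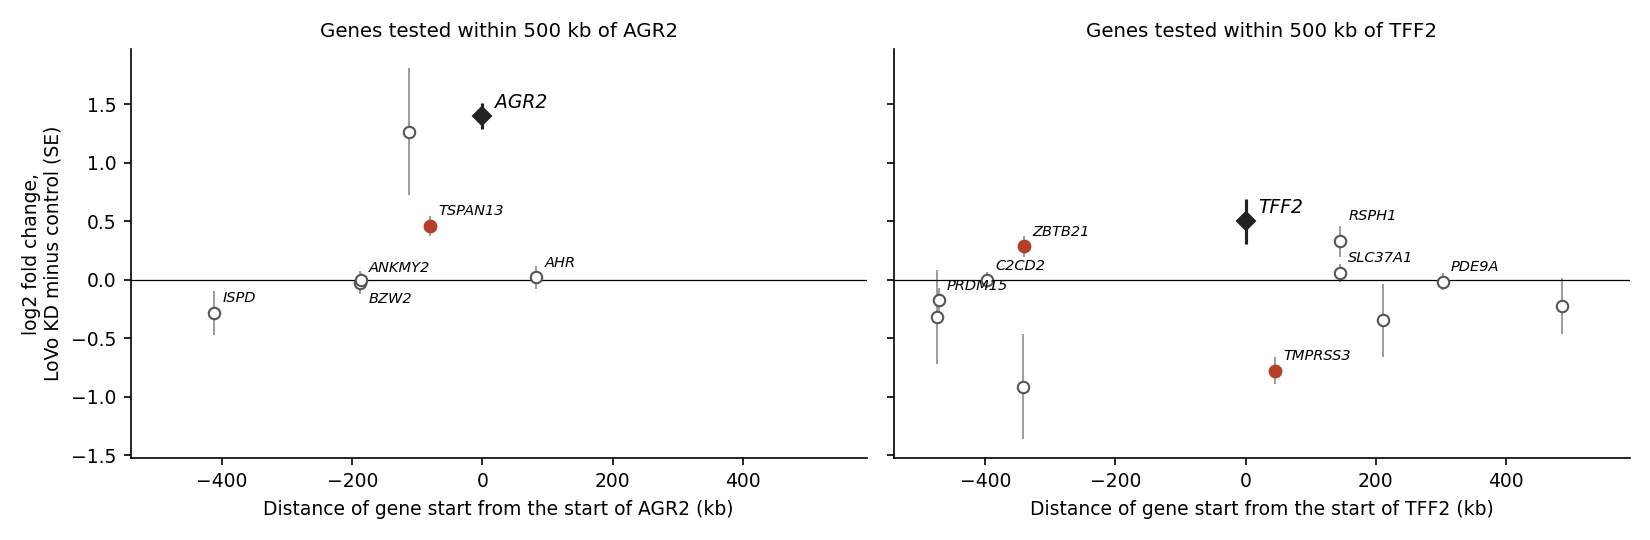
Log2 fold change with its SE (vertical axis, LoVo KD minus control) against the distance of each gene's start from that of AGR2 (left) or TFF2 (right) in kb, for the genes tested within 500 kb. Black diamonds are AGR2 and TFF2, filled circles are neighbours with an adjusted p under 0.05 and open circles the rest, and TMPRSS3 at 45.7 kb from TFF2 lies at -0.78 while TFF2 lies at 0.50.

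Over the 12 libraries, the genes most like AGR2 by Pearson correlation of log2 CPM, among 14260 genes with a symbol and a mean of at least 1 CPM, were MARCOL (r = 0.998), ANTXR2 (0.998), LINC00261 (0.998), LINC02864 (0.998) and PIWIL1 (0.998). MARCOL, LINC00261, LINC02864 and PIWIL1 had 0 counts in HCT116, and PIWIL1, a PIWI-family gene, went from 6.81 to 12.5 CPM between the LoVo arms. Those most like REG4 were PRDM8 (0.999), CFTR (0.999), TAX1BP1 (0.998), CDK13 (0.998) and CYP2J2 (0.997). CFTR, the chloride channel that hydrates mucus, had 267 CPM in the LoVo controls and 376 in the KD libraries, against 0.887 and 0.688 in HCT116 control and OE. REG4 itself stood at rank 117 in likeness to AGR2 (r = 0.994). The 12 points fall into 4 groups and 2 lines, so these values describe mainly the difference between lines.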

How the data were processed

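Read counts per Ensembl gene and FPKM were used as the authors deposited them. Per the submitters' processing notes, the tool was HISAT2 2.1.0 and the build GRCh38. Counter, annotation release and strand use: not given in the sources used here. The deposited FPKM values equal count over gene length and total count (largest relative deviation 6.16e-16). Per the labels' protocols, 1 kit, Illumina TruSeq, was used, and their mention of retinas matches no other label. Columns headed Vector were taken as the HCT116 control group; their numbers were tied to no single sample.

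Each comparison was fitted on its 6 libraries with edgeR 4.0.16 in R 4.3.3 (quasi-likelihood F test, TMM factors, filterByExpr with a count minimum of 10, Benjamini-Hochberg adjustment over all genes tested, calls at 0.05); members that the filter or the choice of genes bears on are given without a test. Member CPM uses TMM factors over all 12 libraries, and CPM of other genes those of their comparison. Exact permutation tests used CPM. Alternatives used DESeq2 1.42.0 and limma 3.58.1. The steps were tested on simulated data. The members and lists were chosen with earlier results of these data known. Named are all members, the called list genes with the smallest p (up to 4 per list and direction, with further genes as values), neighbours within 500 kb of AGR2 and TFF1 to TFF3, and the 5 genes most like AGR2 and like REG4, the other member with the highest FPKM. Symbols were matched for 42303 identifiers. Promoters are from RefSeq, with 5 of the members matched; TFF1, TFF2 and TFF3 were not matched. No 2 libraries of a group agreed within sampling noise (chi-square per degree of freedom 2.40 to 6.63).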

Additional observations from a re-analysis of the deposited data

How the results depend on the processing

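Of 120 refitted log2 fold changes of the members, 117 kept their direction and call, or moved by less than the spread between libraries. The 117 include the fits of REG4, AGR2 and TFF2 between the controls, whose call was largely set by the filter and whose size did move. On log2(FPKM + 1) these were 5.75, 2.62 and 2.55, against 9.52, 8.94 and 8.70 in the main fit. FCGBP in HCT116 turned from -0.03 to 0.0625 without control 2 and 0.0594 without OE 2 (range without 1 library -0.0833 to 0.0625), and in LoVo it was 0.28 on log2(FPKM + 1), where the constant outweighs its low FPKM. In LoVo, leaving out 1 library gave 1.28 to 1.52 for AGR2, 0.865 to 0.929 for REG4, 0.406 to 0.577 for TFF2 and 0.642 to 0.943 for FCGBP. List genes called in HCT116 were 1 without a filter and 1 with DESeq2, AREG in both, against 0. List genes called in LoVo were 31 to 39 without 1 library and 33 to 51 otherwise, against 39.

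All genes called in HCT116 numbered 146, 256 without a filter, 256 with DESeq2, 7 on each FPKM scale and 37 to 287 without 1 library; higher calls were 55.5% of them, 41.8% with upper quartile factors. In LoVo the 4279 became 2845 on log2(FPKM + 1), 2809 without control 1, 2770 without control 3, 4813 without KD 1 and 5588 with the replicate block.

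With a replicate block in LoVo, 51 list genes were called. Same-numbered libraries deviated together by r = 0.0871, 0.0966 and 0.016, each above every crossed pair of its libraries, which is a hint from the data and not from the design. No paired analysis was possible for the other comparisons because the Vector columns are tied to no numbered sample. Depth limits AGR3, SPDEF, TFF1 and TFF3, with at most 18 counts in a library.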

Other observations

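The members differed by unequal amounts between the LoVo arms, given here as a description, within each library, where scaling cancels. Counts of REG4 per count of AGR2 were 12.7, 12.1 and 16.0 in the controls and 9.71, 8.85 and 9.69 in the KD libraries, without overlap. Counts of AGR2 per count of TFF2 were 4.13, 4.85 and 3.72 in the controls and 8.64, 8.75 and 6.64 in the KD libraries, also without overlap. REG4 held 88.0 to 89.9% of the counts of all 8 members in the LoVo controls and 86.4 to 87.3% in the KD libraries, against at most 3.24% in any HCT116 library, where FCGBP made most of them.

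Between the controls of the 2 lines, disulfide isomerases and AGR2 partners differed in both directions. Of the 18 tested, 9 were lower and 6 higher in LoVo, against 39.9% and 39.0% of all genes, with a median log2 fold change of -0.23. Those higher include ERP29 (0.50), TXNDC11 (0.39) and ERP44 (0.25), and P4HB and HSPA5 are among those lower. P4HB, a protein disulfide isomerase, had 864 ± 32.6 CPM in the HCT116 controls and 427 ± 21.7 in the LoVo controls (-1.02, SE 0.054), and HSPA5, the chaperone of the endoplasmic reticulum, 1031 ± 18.1 and 466 ± 12.6 CPM (-1.15, SE 0.051). AREG had 569 ± 17.2 and 128 ± 4.19 CPM (-2.16, SE 0.054). P4HB, HSPA5 and AREG were each called by edgeR and lay without overlap between the lines, where 79.0% of the genes tested were called.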
